A study of Saccharomyces cerevisiae with 12 samples.

Results

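The arsenate effect in wild-type yeast was described from 6 of the 12 arrays of the series, the 3 of untreated wild-type cells and the 3 of wild-type cells treated with arsenate, over the 5449 genes that could be named. The arrays were taken by their labels. Genes named below were picked by fixed rules, some of which use the measured values, such as the widest gaps between the groups. The cells were BY4741, a haploid laboratory strain of Saccharomyces cerevisiae of mating type a that lacks LEU2, URA3 and MET17 in both groups. They grew exponentially at 30 °C in the rich medium YEPD and were taken untreated at 0 h or after 2 h with 100 µM sodium arsenate. The other 6 arrays came from cells of the same background deficient in SLT2, which encodes a kinase that signals damage of the cell wall, in the same conditions and with 3 arrays a group. The replicates are called independent by the design text, which does not mention separate cultures. A p-value below therefore reflects the spread among 3 samples a group, and that spread may be technical. In the fit to all 12 arrays, the spread behind a gene's p-value and SE is pooled over the 4 groups, slt2 included. The median SD of a gene was 0.0693 to 0.0847 in the slt2 groups and 0.493 over the wild-type arsenate arrays. That fit can thus understate the spread among wild-type arrays. Treated cells had also spent 2 h longer in culture, and an untreated sample of 2 h was not analysed here, so arsenate and culture time cannot be told apart.

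Arsenate resembles phosphate and enters yeast through phosphate transporters, of which Pho84 has high affinity. Inside the cell the reductase Arr2 converts it to arsenite, which the plasma membrane pump Arr3 exports, and the transcription factor Arr1 is needed to turn both genes on. Arsenite bound to glutathione is carried into the vacuole by Ycf1, and the glycerol channel Fps1 lets arsenite cross the plasma membrane. The glutathione for this comes from sulfur assimilation, and the factor Yap1 turns on genes against oxidants and reactive aldehydes.

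All levels below are log2 signals of a gene's probe set, so levels are compared between arrays and not between genes, and 1 log2 unit is a doubling. The arrays measure RNA of whole cultures, so fewer cells of a kind and less RNA per cell cannot be told apart. The strain and genotype labels were checked on the 6 arrays. SLT2 lay between 10.66 and 11.01, while the deleted genes LEU2, URA3 and MET17 lay between 3.82 and 5.38, which shows the signal of absent transcripts. The a-factor gene MFA2 lay between 12.34 and 13.68 and STE2, the alpha-factor receptor gene of a cells, between 11.96 and 13.16. The alpha-factor gene MF(ALPHA)1 stayed between 5.05 and 6.19. The other alpha-cell markers lay higher, MF(ALPHA)2 between 5.68 and 6.59, STE3 between 6.99 and 8.45 and SAG1 between 8.84 and 9.46. Alpha-cell markers were thus not all near the signal of the deleted genes.

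The 3 arsenate arrays did not agree on how far the transcriptome had moved. Arsenate array 1 had 1270 genes at least 1 log2 unit above the mean of the untreated arrays and 1032 as far below it. Arsenate array 2 had 266 and 101 such genes, and arsenate array 3 had 19 and 15. Set against the mean of the other 2 untreated arrays, untreated array 1 had 127 genes above and 56 below, untreated array 2 had 108 and 264, and untreated array 3 had 44 and 45. Arsenate array 3 thus lay no farther from the untreated mean than the untreated arrays lay from each other, and array 1 lay farther than any other. With each arsenate array set against only the 2 untreated arrays of the other numbers, a reference of the same size, the counts were 1353 and 1017 for array 1, 317 and 269 for array 2, and 46 and 30 for array 3.

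**Figure D1:**
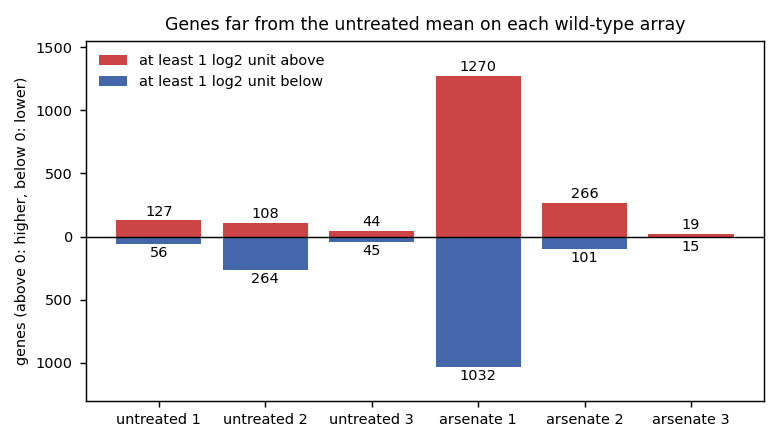
Bars show, for each of the 6 wild-type arrays, the number of genes at least 1 log2 unit above (red, upward) or below (blue, downward) the untreated mean. For an untreated array the mean is of the other 2 untreated arrays; arsenate array 1 stands out with 1270 and 1032 genes, and arsenate array 3 has 19 and 15.

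Correlations across genes, whose values are not independent replicates, gave the same order. Untreated arrays correlated with each other at Pearson r from 0.963 to 0.984. Arsenate array 3 correlated with the untreated arrays at 0.974 to 0.991, whereas arsenate array 1 correlated with them at 0.651 to 0.723 and with arsenate arrays 2 and 3 at 0.779 and 0.672. Arsenate array 2 was closest to untreated array 2, at 0.975. The median SD of a gene was 0.493 over the arsenate arrays and 0.210 over the untreated arrays, against 0.0693 to 0.0847 in the slt2 groups. A measure of RNA integrity moved with the replicate number: the 3′ minus 5′ signal of 7 control transcripts was 1.59 and 1.79 on the untreated and arsenate arrays numbered 2, and the other 4 wild-type arrays lay between 0.924 and 1.18. Its part in the results was not tested.

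ARR2 and ARR3 stood out on every arsenate array. ARR2 (YPR200C), the arsenate reductase gene, lay at 5.94, 4.74 and 5.15 on untreated arrays 1, 2 and 3 and at 10.88, 10.63 and 12.24 on arsenate arrays 1, 2 and 3. Even the lowest arsenate array was 4.69 log2 units above the highest untreated array, and array 3, which resembled untreated cells in most genes, was the highest of the 3. ARR2 rose from 5.28 ± 0.61 to 11.25 ± 0.87 (SD, n = 3), a log2 fold change of 5.97 with SE 0.46. It passed in limma's moderated test over all 12 arrays with an adjusted p = 0.000843. It did not pass in limma's fit to the 6 wild-type arrays alone, with an adjusted p = 0.144, nor with 1 weight per group, with an adjusted p = 0.587. On 2 untreated arrays its signal lay within the range of the deleted genes, so its fold change has an uncertain size.

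ARR3 (YPR201W), the arsenite exporter gene, lay at 6.70, 5.04 and 6.18 untreated and at 11.43, 8.91 and 11.89 with arsenate. The groups were 2.21 log2 units apart, with arsenate array 2 the lowest of the treated arrays and untreated array 2 the lowest of the controls. The log2 fold change was 4.77 (SE 0.68), and limma's adjusted p = 0.074 missed the threshold of 0.05. ARR1, the gene of the regulator, sits beside ARR2 and ARR3 on chromosome XVI in the RefSeq annotation of assembly R64. It lay at 10.24, 9.72 and 9.9994 untreated and at 10.94, 9.77 and 10.42 with arsenate, and its groups overlapped (log2 fold change 0.39, limma's adjusted p = 0.318; the sign turned to -0.17 when each array was weighted by its own spread).

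The genes of arsenic transport did not pass either. YCF1, the vacuolar transporter of glutathione conjugates, lay at 12.16, 12.01 and 12.15 untreated and at 11.97, 12.32 and 12.38 with arsenate, so arsenate array 1 was the lowest and the other 2 the highest of the 6. The log2 fold change was 0.12. FPS1, the glycerol channel, lay at 11.59, 11.39 and 11.36 untreated and at 10.86, 11.10 and 11.24 with arsenate. All its arsenate arrays were below all untreated arrays, by a narrow margin (log2 fold change -0.38, SE 0.13, limma's adjusted p = 0.299). VMR1, a vacuolar transporter of the same family as Ycf1, had a log2 fold change of 0.86, with arsenate array 3 at 9.64 below untreated array 3 at 9.97. PHO84 lay at 13.44, 11.34 and 13.50 untreated and at 9.55, 10.99 and 13.36 with arsenate. It was low on both arrays numbered 2 and lowest on arsenate array 1, and the level on arsenate array 3 was that of untreated arrays 1 and 3. YAP1 itself lay between 9.23 and 9.95 untreated and between 9.21 and 10.40 with arsenate. Over the 10 genes of arsenic handling, the median log2 fold change was 0.34, against 0.06 over all genes tested. Of the 10, 1 passed, which was ARR2, against 0.0184% of all genes called higher. The median shift was 0.92, 0.12 and 0.30 on arsenate arrays 1, 2 and 3. The median log2 fold change was 0.07 without arsenate array 1, and it turned to -0.0092 without arsenate arrays 1 and 2 and untreated array 2.

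**Figure D2:**
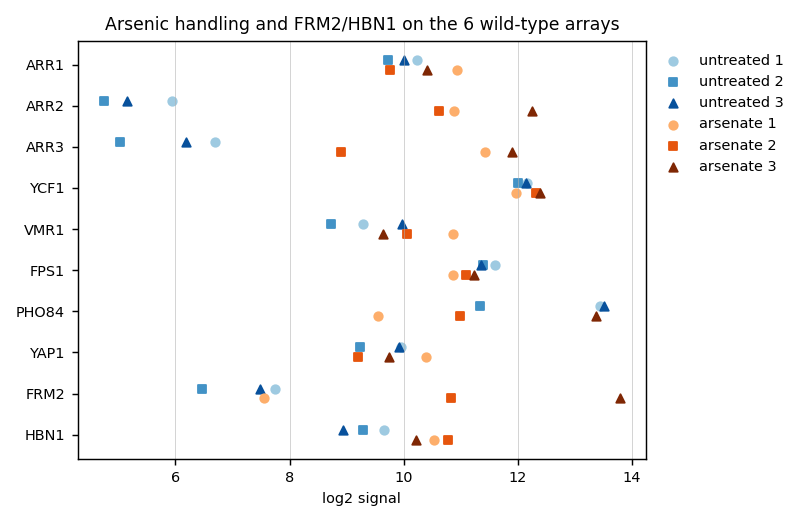
Log2 signal (horizontal axis) of 8 genes of arsenic handling and of FRM2 and HBN1 on the 6 wild-type arrays; blue marks are untreated arrays, orange marks arsenate arrays, and the marker shape gives the replicate number. ARR2 and ARR3 are separated by 4.69 and 2.21 log2 units, and FRM2 on arsenate array 1 lies at 7.55, among the untreated arrays.

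FRM2 and HBN1 encode nitroreductase-like proteins and are neighbours on chromosome III in assembly R64. FRM2 lay at 7.75, 6.47 and 7.48 untreated and at 7.55, 10.84 and 13.80 with arsenate. Arsenate array 1 was within the untreated range while array 3 was the highest of the 6, so the groups overlapped (log2 fold change 3.49, SE 1.20, limma's adjusted p = 0.299). HBN1 lay at 9.66, 9.29 and 8.95 untreated and at 10.53, 10.78 and 10.22 with arsenate. Its groups did not overlap, and its 3 arsenate arrays lay close together (log2 fold change 1.21, SE 0.21, limma's adjusted p = 0.157). On HBN1 the treated arrays thus stood in another order than on FRM2, with array 3 the lowest.

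Across all genes, ARR2 was the only gene to pass in the 12-array limma fit: 1 gene was called higher with arsenate (0.0184% of the 5449 tested) and 0 lower (0%). A list without ARR2 therefore holds 0 passing genes, and that count says nothing further about its members. At an unadjusted p under 0.05, 507 genes were higher and 189 lower. The 6-array limma fit called 0 genes, with 72 at an unadjusted p under 0.05. The count rested on which arrays were used: leaving out arsenate array 3 gave 812 calls higher and 796 lower, leaving out arsenate array 2 gave 2 in all, and leaving out arsenate array 1 or any untreated array gave 1.

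A comparison that uses no estimate of spread asks whether all 3 arsenate arrays lie on the same side of all 3 untreated arrays. In 308 genes (5.65%) every arsenate array was higher than every untreated array, and in 159 (2.92%) every arsenate array was lower. Even in these genes the arrays differed in size: the median shift of the 308 from the untreated mean was 1.21 on arsenate array 1, 0.37 on array 2 and 0.22 on array 3, and that of the 159 was -0.90, -0.27 and -0.14. Only 5 genes had a gap of at least 1 log2 unit between the groups. These were ARR2, ARR3, GRE2, HSP31 and YNL134C, all higher with arsenate.

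GRE2, a reductase of methylglyoxal and other reactive aldehydes, lay at 10.73, 10.23 and 10.45 untreated and at 12.55, 11.82 and 11.91 with arsenate. Arsenate arrays 2 and 3 lay close together on it, and array 1 lay higher (log2 fold change 1.63, SE 0.23, limma's adjusted p = 0.074). HSP31, a methylglyoxal-degrading enzyme of the DJ-1 family, lay at 10.30, 10.87 and 10.28 untreated and at 13.82, 13.22 and 11.94 with arsenate (log2 fold change 2.51, SE 0.41, limma's adjusted p = 0.123). Here arsenate array 3 was the lowest of the treated arrays and still 1.07 log2 units above the highest control. YNL134C, an oxidoreductase related to alcohol dehydrogenases, lay at 10.79, 12.02 and 11.53 untreated and at 13.62, 13.07 and 13.06 with arsenate, with the treated arrays closer to each other than the controls were (log2 fold change 1.81, limma's adjusted p = 0.123). YML131W, a related dehydrogenase, lay at 10.11, 8.90 and 9.60 untreated and at 12.60, 10.76 and 10.97 with arsenate (log2 fold change 1.91).

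Other oxidoreductases and glutathione enzymes were separated by less. OYE3, an NADPH dehydrogenase of the old yellow enzyme family, lay at 6.96, 5.71 and 6.37 untreated and at 9.90, 7.41 and 8.75 with arsenate (log2 fold change 2.34). GTT2, a glutathione transferase, lay at 7.85, 7.19 and 7.44 untreated and at 9.51, 8.25 and 8.75 with arsenate (log2 fold change 1.35). For both genes arsenate array 2 was the lowest of the treated arrays and untreated array 2 the lowest of the controls. GTT1, another glutathione transferase gene, overlapped: arsenate array 3 at 11.20 lay below untreated array 2 at 11.71. None of these genes passed the test. Of the 32 genes of oxidative defence, glutathione metabolism and Yap1 targets, 0 passed. Without overlap, 6 of 32 were higher and 0 lower, against 5.65% and 2.92% of all genes, and the median log2 fold change was 0.46, against 0.06. The list's median shift was 0.88, 0.34 and 0.14 on arsenate arrays 1, 2 and 3.

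GCV1 and GCV2 encode subunits of the mitochondrial glycine cleavage complex, which feeds carbon into folate. GCV1 lay at 11.03, 11.21 and 10.78 untreated and at 13.49, 12.0007 and 11.82 with arsenate, and GCV2 at 11.64, 11.77 and 11.58 against 12.81, 12.27 and 12.23. On both genes arsenate array 1 was the highest and the other 2 treated arrays were nearly equal (log2 fold changes 1.43 and 0.78). GCV3, another subunit gene of the complex, overlapped, since arsenate array 3 at 13.12 lay just below untreated array 2 at 13.15. ICL2, a mitochondrial 2-methylisocitrate lyase, had a log2 fold change of 0.997, and PUT2, which acts in proline breakdown, one of 0.69. FMP23, which encodes a mitochondrial protein of unknown role, had 1.52. In these 3 genes too, every arsenate array was above every untreated array, and none passed.

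No downward gap reached 1 log2 unit. The widest downward gap was 0.69 log2 units, in PRM7, a pheromone-regulated membrane protein gene: 9.81, 9.05 and 9.19 untreated against 7.48, 8.19 and 8.36 with arsenate (log2 fold change -1.34, SE 0.30, limma's adjusted p = 0.299). YGR035C, a gene of unknown function, lay at 10.98, 10.66 and 9.53 untreated and at 7.80, 7.399 and 9.05 with arsenate (log2 fold change -2.31). Its untreated array 3 was closer to arsenate array 3 than to the other controls. YKR075C, also uncharacterised, lay at 10.85, 10.92 and 9.65 untreated and at 9.29, 8.63 and 8.30 with arsenate (log2 fold change -1.73), and here arsenate array 3 was the lowest of all.

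Among the other genes with the widest downward gaps was MIG2, the gene of a glucose-induced repressor, which lay at 10.32, 11.03 and 10.56 untreated and at 6.53, 9.63 and 9.99 with arsenate. PFK27, which makes the glycolytic activator fructose-2,6-bisphosphate, lay at 10.08, 9.78 and 9.85 untreated and at 6.48, 9.46 and 9.57 with arsenate. In both, arsenate array 1 was far below the other treated arrays. On arsenate arrays 2 and 3 the shift from the untreated mean was -1.01 and -0.64 for MIG2, and -0.45 and -0.33 for PFK27. ANB1, the translation factor gene expressed under low oxygen, lay at 10.37, 12.93 and 10.26 untreated and at 7.77, 9.42 and 10.04 with arsenate, and TIR3, a cell wall mannoprotein gene, had a log2 fold change of -1.29. MET13, the methylenetetrahydrofolate reductase gene, lay at 9.70, 9.78 and 10.11 untreated and at 9.34, 8.82 and 9.19 with arsenate (log2 fold change -0.75). Its log2 fold change in slt2 cells was -0.69.

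**Figure D3:**
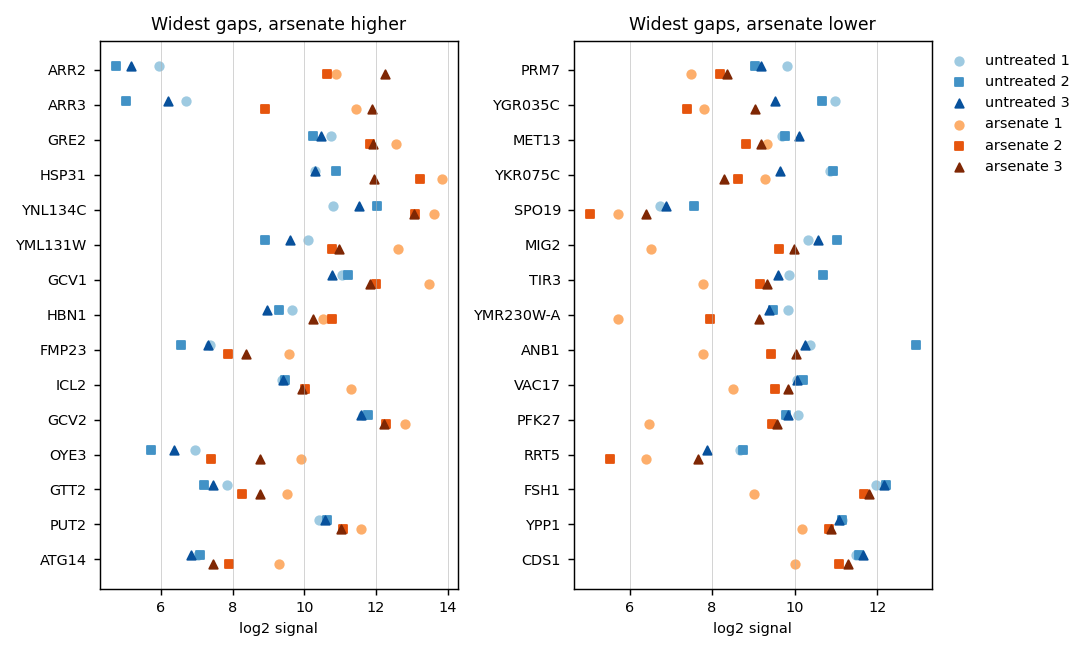
Log2 signal (horizontal axis) of the 15 genes with the widest gap between the groups upward (left) and downward (right), ordered by the gap; blue marks are untreated arrays, orange marks arsenate arrays, and the marker shape gives the replicate number. The gap is 4.69 for ARR2 and 1.09 for GRE2 on the left, and at most 0.69, for PRM7, on the right.

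A size rule selected a similar small set. On 8 genes all 3 arsenate arrays were at least 1 log2 unit above the untreated mean: ARR2, ARR3, YNL134C, HSP31, GRE2, YML131W, OYE3 and YRO2. YRO2, a membrane protein gene that was named after its values were seen, overlapped, since its untreated arrays ran from 8.44 to 12.10. On 3 genes, YGR035C, YKR075C and ANB1, all 3 were at least 1 log2 unit below. When only arsenate arrays 1 and 2 had to meet the rule, 214 genes were above and 52 below.

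Genes of sulfur metabolism, the source of glutathione, had both signs. Of 31 genes, 0 passed, and 4 were higher and 2 lower without overlap, against 5.65% and 2.92% of all genes. The median log2 fold change was 0.12, which turned to -0.05 under quantile normalization. MET3, the ATP sulfurylase gene that opens sulfate assimilation, lay at 9.08, 8.97 and 8.90 untreated and at 9.32, 10.02 and 9.68 with arsenate (log2 fold change 0.69). MET2, a homoserine acetyltransferase gene, lay at 7.21, 5.92 and 6.30 untreated and at 6.92, 7.98 and 8.09 with arsenate (log2 fold change 1.19). In both, arsenate array 1 was the lowest of the treated arrays, and in MET2 it lay inside the untreated range. MET6, the methionine synthase gene, was lower on all 3 arsenate arrays, at 12.21, 13.08 and 13.41 against 13.82, 13.54 and 13.73 (log2 fold change -0.79). Of the 20 genes of purine synthesis and one-carbon metabolism, 4 were higher without overlap and 0 lower, against 5.65% and 2.92% of all genes, with a median of 0.22. These were GCV1, GCV2, MTD1, a folate dehydrogenase gene, and ADE1, a purine synthesis gene at 11.52, 11.63 and 11.59 untreated against 11.74, 12.74 and 12.13 with arsenate.

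No phosphate or metal gene passed the test. The 23 phosphate genes had a median log2 fold change of -0.25, with median shifts of -0.27, -0.40 and 0.24 on arsenate arrays 1, 2 and 3. Of the 23, 1 was higher without overlap, near the share of 5.65% of all genes. It was PHM8, a phosphatase gene of the phosphate regulon, at 8.20, 8.61 and 8.26 untreated and 10.60, 10.08 and 8.70 with arsenate. The 22 iron uptake genes had a median log2 fold change of 0.35, with 18 of 22 above 0, against 55.2% of all genes. Of the 22, 0 were higher and 0 lower without overlap, against 5.65% and 2.92% of all genes. In the 12-array limma fit 0 had an unadjusted p under 0.05. Their median shifts were 0.75, 0.03 and 0.28 on the arsenate arrays. The untreated arrays, each set against the other 2, had median shifts of 0.36, -1.09 and 0.76. Of the 14 metallothionein, copper and zinc genes, 2 were higher without overlap, against 5.65% of all genes, and the median was 0.32. CTR1, the copper importer gene, overlapped, with arsenate array 3 at 12.32 against untreated array 3 at 12.36.

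**Figure D4:**
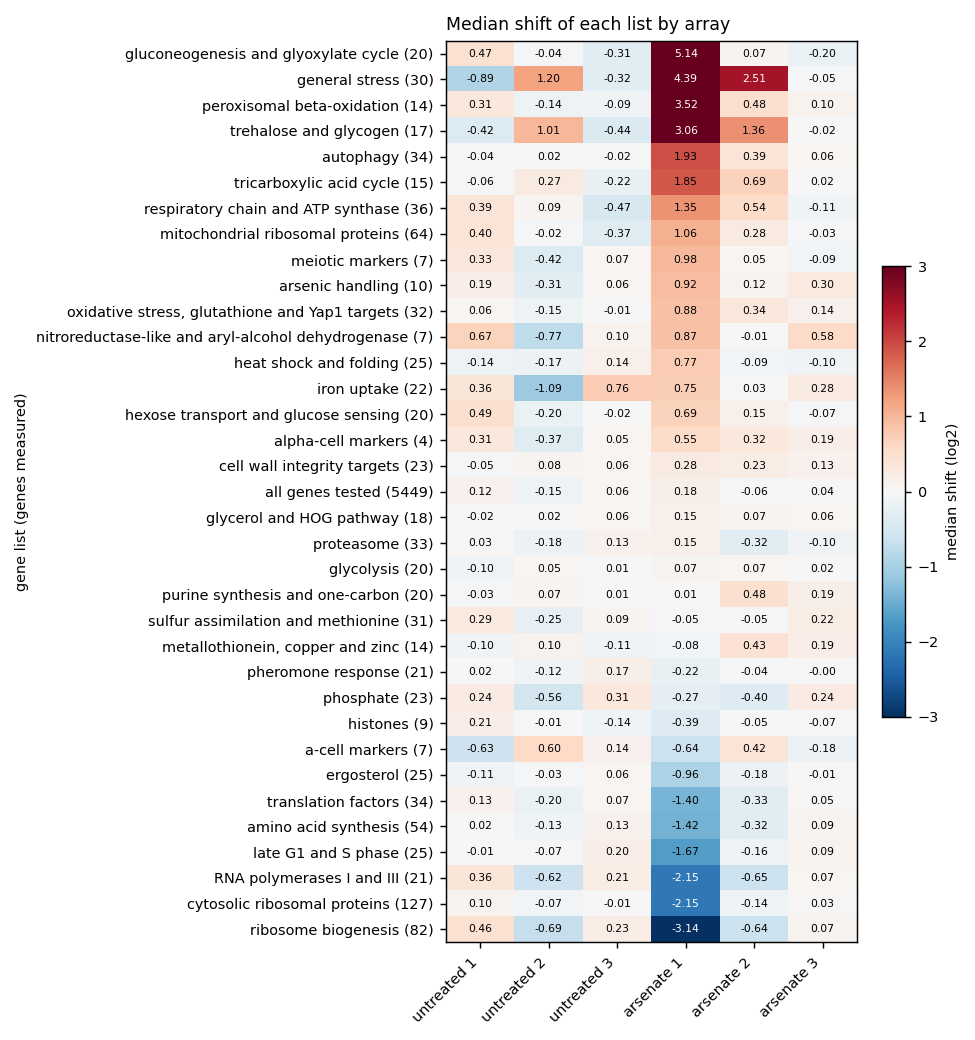
Each cell gives the median shift, in log2 units, of a gene list (row, with the number of genes measured) on 1 wild-type array (column) from the untreated mean, or for an untreated array from the mean of the other 2; colours run from -3 (blue) to 3 (red) and do not go beyond. The general stress list is at 4.39, 2.51 and -0.05 on arsenate arrays 1, 2 and 3, and ribosome biogenesis at -3.14, -0.64 and 0.07.

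The lists whose medians differed most between the arsenate arrays held stress, carbon and growth genes. The 30 general stress genes, which the factors Msn2 and Msn4 turn on in many stresses, had median shifts of 4.39, 2.51 and -0.05 on arsenate arrays 1, 2 and 3, and of -0.89, 1.20 and -0.32 on the untreated arrays. Their median log2 fold change was 2.29. In the 12-array limma fit, 26 of 30 had an unadjusted p under 0.05, against 696 of the 5449 genes tested. That fit draws on the less variable slt2 arrays. In the 6-array fit 72 of all genes were under 0.05, and the list was not counted there. Of the 30, 0 passed, and 2 were higher without overlap, against 5.65% of all genes. Those 2 were HSP31 and DDR48, a DNA-damage-responsive protein gene at 11.45, 12.39 and 11.16 untreated and 13.99, 13.52 and 12.51 with arsenate (log2 fold change 1.67). Without arsenate array 1 the list's median was 1.20, and without arsenate arrays 1 and 2 and untreated array 2 it was 0.47. HSP26, a small heat shock protein gene, showed the split, at 8.37, 11.98 and 9.29 untreated and 14.70, 14.11 and 9.42 with arsenate. Both arrays numbered 2, which had the larger 3′ minus 5′ difference, were thus higher than the arrays numbered 3 in this gene. Arsenate array 1, with the smallest such difference of the wild-type arrays at 0.924, was the highest. A part of RNA integrity in this was not tested.

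Reserve carbohydrate genes had the same order of arrays. The 17 trehalose and glycogen genes had median shifts of 3.06, 1.36 and -0.02 on the arsenate arrays and 1.01 on untreated array 2, with a median log2 fold change of 1.35. Of the 17, 1 was higher without overlap, near the share of 5.65% of all genes. It was NTH2, a neutral trehalase gene, at 9.86, 10.02 and 9.71 untreated and 11.81, 10.88 and 10.14 with arsenate. TSL1, a subunit gene of trehalose synthase, lay at 12.03 on untreated array 2, above arsenate array 3 at 11.15. Over 25 genes of heat shock and folding the median was 0.15, and -0.07 without arsenate array 1.

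By their list median, glucose-repressed genes were high on arsenate array 1 and near the controls on the other 2. The 20 genes of gluconeogenesis and the glyoxylate cycle had median shifts of 5.14, 0.07 and -0.20 on arsenate arrays 1, 2 and 3, and the median log2 fold change of 1.82 became 0.02 without array 1. FBP1, the fructose-1,6-bisphosphatase gene of gluconeogenesis, lay at 8.24, 6.85 and 5.06 untreated and at 13.07, 6.40 and 6.39 with arsenate. Single genes differed on arsenate array 2: the shift there was -0.31 for FBP1, and 1.58 and 1.26 for the list members CYB2 and CAT8. SFC1, a mitochondrial succinate-fumarate carrier gene, and RGI2, a gene used in respiratory growth, reached 13.64 and 14.60 on arsenate array 1 and stayed at or below 6.95 on the other 5 arrays. HXT1, the low-affinity glucose transporter gene that high glucose turns on, lay at 6.22, 11.34 and 12.16 untreated and at 5.76, 10.92 and 11.58 with arsenate. Both arrays numbered 1 were low in this gene, treated or not. HXT5, a transporter gene of slow growth, reached 13.55 and 10.56 on arsenate arrays 1 and 2 and 6.05 on array 3, under the 3 controls.

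Mitochondrial and peroxisomal genes shared that order with smaller sizes. Median shifts on arsenate arrays 1, 2 and 3 were 3.52, 0.48 and 0.10 for 14 genes of peroxisomal beta-oxidation and 1.85, 0.69 and 0.02 for 15 genes of the tricarboxylic acid cycle. For 36 genes of the respiratory chain and ATP synthase they were 1.35, 0.54 and -0.11, and for 64 mitochondrial ribosomal protein genes 1.06, 0.28 and -0.03. Of these 4 lists 0 genes passed, and 3, 3, 1 and 1 were higher without overlap, against 5.65% of all genes. The 20 glycolysis genes had a median log2 fold change of 0.05, which turned to -0.01 under quantile normalization. CIT1, the mitochondrial citrate synthase gene, was among the members without overlap, at 12.49, 12.68 and 12.41 untreated and 14.34, 13.22 and 12.69 with arsenate. The 34 autophagy genes had median shifts of 1.93, 0.39 and 0.06, and 8 of 34 were higher without overlap and 0 lower, against 5.65% and 2.92% of all genes. They were ATG9, ATG14, ATG17, ATG20, ATG23, ATG32, ATG36 and ATG40. ATG14, a subunit gene of the lipid kinase that starts autophagosomes, lay at 7.02, 7.08 and 6.85 untreated and 9.29, 7.90 and 7.45 with arsenate, and ATG40, an autophagy receptor gene of the endoplasmic reticulum, at 8.51, 9.01 and 8.59 against 11.82, 9.84 and 9.15.

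The 82 ribosome biogenesis genes had median shifts of -3.14, -0.64 and 0.07 on arsenate arrays 1, 2 and 3 from the mean of the 3 untreated arrays. Untreated array 2 was at -0.69 from the mean of the other 2, a different reference. All 82 had a log2 fold change below 0, against 2440 of the 5449 genes tested. Their median was -1.24, but 0 passed. Without overlap 0 were higher and 0 lower, against 5.65% and 2.92% of all genes. Without arsenate array 1 the median was -0.30. The 127 cytosolic ribosomal protein genes had median shifts of -2.15, -0.14 and 0.03, 126 of 127 were below 0, and 5 were lower without overlap, against 2.92% of all genes. These genes include near-identical pairs whose probe sets may share signal. RPL41A, which encodes a protein of the large subunit, lay at 9.06, 8.72 and 8.64 untreated and 7.05, 7.78 and 8.90 with arsenate. The 21 genes of RNA polymerases I and III had shifts of -2.15, -0.65 and 0.07, and the 34 translation factor genes of -1.40, -0.33 and 0.05.

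Biosynthesis and cell cycle genes also set array 1 apart. The 54 amino acid synthesis genes had median shifts of -1.42, -0.32 and 0.09, with 4 of 54 lower and 1 higher without overlap, against 2.92% and 5.65% of all genes. BAT1, the mitochondrial branched-chain aminotransferase gene, lay at 13.28, 13.19 and 13.29 untreated and 11.14, 12.43 and 13.11 with arsenate (log2 fold change -1.03), lowest on arsenate array 1 and close to the controls on array 3. The 25 ergosterol genes had shifts of -0.96, -0.18 and -0.01, and 5 of 25 were lower without overlap, against 2.92% of all genes. ERG3, a sterol desaturase gene, lay at 12.90, 12.67 and 12.78 untreated and at 9.16, 12.29 and 12.64 with arsenate. The 25 late G1 and S phase genes had shifts of -1.67, -0.16 and 0.09. RNR1, which encodes the large subunit of ribonucleotide reductase, had a signal of 8.13 on arsenate array 1, while the other 5 arrays lay between 12.51 and 12.73.

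No gene of the cell wall, signalling and glucose transport lists passed. The 23 cell wall integrity targets had a median log2 fold change of 0.20 and shifts of 0.28, 0.23 and 0.13. Of them 18 were above 0, against 55.2% of all genes. In the 12-array limma fit 7 had an unadjusted p under 0.05, against 696 of all 5449. Without overlap 2 were higher and 1 lower, against 5.65% and 2.92%. PIR3, a cell wall protein gene, lay at 7.15, 7.16 and 6.73 untreated and at 11.38, 10.61 and 7.37 with arsenate (log2 fold change 2.77). KDX1, a kinase gene that Slt2 signalling turns on, lay at 7.11, 6.13 and 6.51 untreated and at 7.68, 7.05 and 7.12 with arsenate, and arsenate array 2 lay just below untreated array 1. GSC2, the alternative glucan synthase gene, lay at 10.83, 10.90 and 10.01 untreated and at 11.44, 12.87 and 10.86 with arsenate. In it arsenate array 2 was the highest and array 3 lay within the controls. Medians were 0.09 for 18 glycerol and HOG pathway genes, -0.09 for 33 proteasome genes, -0.21 for 9 histone genes, -0.06 for 21 pheromone response genes and 0.26 for 20 genes of hexose transport and glucose sensing. The last list held genes of either sign, with HXT5 and HXT2 far apart: HXT2, a glucose transporter gene, lay at 13.41, 10.25 and 12.38 untreated and at 8.24, 9.42 and 12.08 with arsenate.

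Markers of other cell types and states were measured on the same arrays. The 7 a-cell markers had a median log2 fold change of -0.09. Without overlap 0 were higher and 0 lower, against 5.65% and 2.92% of all genes. Their mean level lay between 11.28 and 12.09 untreated and between 11.48 and 12.18 with arsenate. The 4 alpha-cell markers had a median of 0.41, and 2, MF(ALPHA)1 and STE3, were higher without overlap, against 5.65% of all genes. MF(ALPHA)1 lay at 5.39, 5.24 and 5.05 untreated and at 5.77, 6.19 and 5.53 with arsenate, near the signal of the deleted genes. The mean level of the 4 lay between 6.71 and 7.18 untreated and between 7.18 and 7.57 with arsenate. The 7 meiotic markers had a median of 0.47, with 6 of 7 above 0, against 55.2% of all genes. Their median shifts were 0.98, 0.05 and -0.09 on arsenate arrays 1, 2 and 3. SPO11 lay between 5.98 and 7.15 on the 6 arrays. NDT80 and IME2 reached 8.90 and 8.92 on arsenate array 1, and at most 7.36 and 7.33 untreated. The mean level of the 7 lay between 6.76 and 7.46 untreated and between 7.16 and 7.87 with arsenate. Their part in the results was not tested.

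Each arsenate array also had genes on which it stood apart from the other 2. On array 1, 850 genes were at least 1 log2 unit above and 815 as far below both other treated arrays. On array 2 the counts were 38 and 85, and on array 3 they were 120 and 206. Only 19 and 15 genes on array 3 were that far above and below the untreated mean. Most genes counted for array 3 were thus less than 1 log2 unit from the untreated mean. BIO3 and BIO5, which act in biotin synthesis and uptake, reached 11.96 and 9.67 on arsenate array 2, while the other 5 arrays stayed at or below 8.55 and 6.86. VEL1 and YOR387C, a similar gene pair whose probe sets may share signal, were high on both arrays numbered 2. VEL1 lay at 5.11, 10.07 and 5.08 untreated and 5.50, 11.35 and 5.54 with arsenate. CHA1, the serine deaminase gene, lay at 10.40, 10.97 and 11.50 untreated and at 13.11, 7.96 and 11.45 with arsenate, so arrays 1 and 2 went opposite ways. FRM2 was the gene farthest above both other treated arrays on array 3, followed by HXT2, YOL014W and PHO84. For PHO84 and HXT2, array 3 was at the level of untreated array 3, and arrays 1 and 2 were low.

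The slt2 arrays gave a second measurement of the same treatment that shares no array with the wild type. In slt2 cells, 835 genes (15.3%) were higher without overlap and 396 (7.27%) lower. Of the 308 genes higher without overlap in wild type, 112 were so in slt2 as well, which is 36.4% of the wild-type genes and 13.4% of the slt2 genes. Of the 159 lower genes, 42 were lower in slt2, 26.4% and 10.6% of the respective sets. Opposite separations were seen in 4 and 4 genes. Both genotypes share the 2 h of extra culture time.

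The genes with the widest gaps differed in this respect. Of the 15 widest upward gaps, 14 genes were also higher without overlap in slt2, against 15.3% of all genes. The exception was ATG14, at -0.08 in slt2. The median log2 fold change of the 15 in slt2 was 1.24. Of the 15 widest downward gaps, 3 were lower without overlap in slt2, against 7.27% of all genes, and the median was -0.09. The sign in slt2 was that of wild type in 14 of the 15 upward and 14 of the 15 downward genes. In slt2, ARR2 had a log2 fold change of 6.65 and ARR3 of 5.56, against 5.97 and 4.77 in wild type, and FRM2 one of 6.04 against 3.49. The difference of the effects, slt2 minus wild type, was 0.68 (SE 0.66) for ARR2, 0.78 (SE 0.96) for ARR3 and 2.55 (SE 1.69) for FRM2. None passed in limma's interaction test, which called 0 of the 5449 genes, with 28 at an unadjusted p under 0.05 and a smallest adjusted p = 0.711. Without arsenate array 3 it called 22.

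Replicate by replicate, the slt2 difference resembled that of the wild-type arrays numbered 3. Across the 5449 genes, the arsenate minus untreated difference of the arrays numbered 1, 2 and 3 correlated with the mean slt2 difference at r = 0.223, 0.381 and 0.784. Without ARR2, ARR3 and FRM2, the genes farthest from 0 in slt2, r was 0.246, 0.316 and 0.673. Between wild-type numbers, the differences of 1 and 2 correlated at 0.546, those of 1 and 3 at 0.249 and those of 2 and 3 at 0.373. These values describe the arrays, since genes are not independent replicates and the arrays of a number are not known to be paired.

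**Figure D5:**
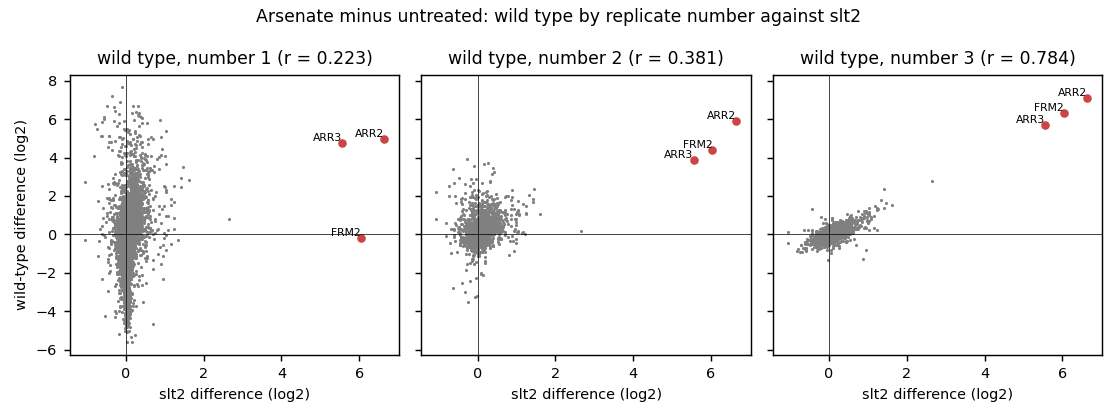
Each point is 1 of 5449 genes; the horizontal axis is the mean arsenate minus untreated difference in slt2 cells and the vertical axis the same difference between the wild-type arrays numbered 1, 2 or 3, both in log2 units. ARR2, ARR3 and FRM2 are marked in red; r is 0.223 in the left panel and 0.784 in the right, and FRM2 is near 0 in the left panel alone.

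Genes with the smallest p for the difference included some with opposite signs, and none passed. FRE7, a metal reductase gene that lies beside GRE2 on chromosome XV in assembly R64, lay at 6.93, 7.79 and 8.04 untreated and at 9.68, 10.0017 and 7.59 with arsenate. Arsenate arrays 1 and 2 were above the controls and array 3 was not, and in slt2 the log2 fold change was -1.06 (limma's interaction test, adjusted p = 0.711). YGR035C had -2.31 in wild type and -0.06 in slt2 (limma's interaction test, adjusted p = 0.711). ZPS1, a zinc-regulated cell surface protein gene named after its values were seen, had the fourth-largest difference in slt2, 2.65. In wild type it lay at 9.12, 14.06 and 10.12 untreated and at 9.94, 14.25 and 12.88 with arsenate, so both arrays numbered 2 were high, as for VEL1, and the difference within number 3 was the one of that size.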

How the data were processed

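The submitters hybridised RNA of 12 samples to Affymetrix yeast arrays. The deposited values are log2 signals per probe set, which the authors summarised by RMA; the submitters' processing notes name Affymetrix Expression Console. RMA corrects background, gives the arrays like distributions and summarises probes, which narrows differences that affect most genes. Neither its version and settings nor whether all arrays were summarised together is stated: not given in the sources used here. Values ran from 3.05 to 14.91, with array medians from 9.98 to 10.2. The precision is limited by the number of arrays.

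Of 5814 probe sets, 98 were controls, and the platform annotation names 1 gene for 5498, several for 0 and none for 316. All 5498 were matched to RefSeq (assembly R64). Of 47 genes with several probe sets, the one with the highest mean was kept, leaving 5449 genes. No probe set was filtered. Group means of all 4 groups of 3 arrays were fitted with limma 3.58.1 in R 4.3.3 (lmFit, eBayes). P-values were adjusted by Benjamini-Hochberg over the 5449 genes, with a threshold of 0.05. The fit was tested on simulated data in which a gene had the same spread in all groups. That simulation therefore does not cover the unequal spread of the groups here. Python 3.11.15 and matplotlib 3.10.9 were used for counts and figures.

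The arrays and gene lists were chosen with earlier results of these data known. Lists are described by counts and medians, without a test. Genes were named by a rule: label checks, arsenic genes, called genes, the 15 widest gaps in each direction, up to 4 members of each list with the smallest p, the 4 genes a direction that set each arsenate array farthest from the others, and the 5 with the smallest p for the difference from slt2. ERG3, the autophagy and purine genes counted without overlap, YRO2 and ZPS1 were named outside that rule, after their values were seen. Alternatives were the 6 wild-type arrays alone, a replicate block, weights per group or array, trend and robust settings, a filter on dim probe sets (mean log2 under 7), median centring, quantile normalization, and leaving out each array or the 3 that stood apart. Promoter sequences were not used here.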

Additional observations from a re-analysis of the deposited data

Results flagged for a closer look

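PRM7 had opposite signs in the genotypes. In wild type all 3 arsenate arrays were below all 3 untreated arrays (log2 fold change -1.34), and in slt2 cells all 3 were above (0.95). The difference, slt2 minus wild type, was 2.285 (SE 0.42). Limma's interaction test gave an unadjusted p = 0.000309 and an adjusted p = 0.711, so it did not pass.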

How the results depend on the processing

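ARR2 was called in 14 of 16 alternatives, with limma's adjusted p from 0.00034 to 0.587, and ARR3 in 6 of 16. In limma's fit, 0 genes were called with the 6 wild-type arrays only, 0 with 1 weight per group, 3 with the 3 arrays that stood apart left out (untreated 2, arsenate 1 and 2), 1479 with 1 weight per array (651 higher, 828 lower) and 2 with such weights estimated by REML, a setting added after the data were seen. The first weights gave arsenate array 2 a weight of 1.39 against 0.0204 and 0.155 for arrays 1 and 3, and REML gave array 2 1.15e-08. Leaving out 1 array gave from 1 to 1608 calls, from 0 to 22 for the difference from slt2, and from 630 to 2548 genes without overlap against 467 with all arrays. Without untreated array 1 or 2, or arsenate array 2, that count was 931, 1585 and 815; fewer arrays overlap less often. With the replicate block 2 genes were called. The numbers share no stated source, and deviations of same-numbered wild-type arrays correlated at 0.044, 0.349 and 0.467, with untreated array 1 correlating better with arsenate array 3 (0.154). Signs turned for ARR1 with 1 weight per array (-0.17), and with REML weights for VMR1 (-0.11), FRE7 (-0.15) and REE1 (-0.015); the cause was not tested. Of 926 alternative values of 58 genes, 922 kept their sign. Many of the 58 were named because their wild-type groups did not overlap. Leaving out or weighting arrays cannot turn the sign of such a gene, so the count says little about them. Of 35 lists, 18 kept the sign of their median in all alternatives, 13 turned when the 3 arrays were left out and 2 without arsenate array 1. The median SD of a gene over the arsenate arrays, 0.493, limits what could be called, and signals near those of deleted genes give no reliable size.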
